A study of Mus musculus with 6 samples.

Results

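The genes of the mouse MHC class II system were followed in RNA-seq of whole dorsal skin treated with the contact sensitizer diphencyprone (DPCP) and sampled at day 2. The set holds 10 of the 55487 genes in the count table and was chosen by gene name: the chains of the antigen-presenting molecules H2-Aa, H2-Ab1 and H2-Eb1, the invariant chain Cd74, the peptide-loading genes H2-DMa, H2-DMb1, H2-DMb2, H2-Oa and H2-Ob, and the transcriptional co-activator Ciita. All 10 were found in the table, and all 10 passed the filter on low counts. In the first group, 3 libraries came from skin treated with DPCP and clodrosome (spelled "Codrosome" in the labels), liposomes carrying clodronate that kill phagocytes which ingest them. In the other group, 3 libraries came from skin treated with DPCP and encapsome, the liposomes without clodronate. Every library therefore comes from DPCP-treated skin, and no skin without DPCP enters the comparison. Strain, sex and age are not given in the sources used here. Libraries carry the letters A, B and C in each group, which match nothing between the groups. The labels do not say that each came from its own animal, so a p-value here reflects the spread among libraries, which may be technical.

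MHC class II molecules are pairs of an alpha and a beta chain that show peptides from ingested material to CD4+ helper T cells. The chains assemble in the endoplasmic reticulum with the invariant chain, which blocks the groove until proteases of the endosome cut it down, and H2-DM then exchanges the remaining fragment for a peptide while H2-DO restrains H2-DM. CIITA is the co-activator without which most of these genes are hardly transcribed, and it acts through factors bound to short conserved elements, the X and Y boxes, in front of each gene. In skin the molecules are carried by dendritic cells, Langerhans cells, macrophages and B cells, and interferon gamma can induce them in other cells.

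The boxes can be seen in the promoter sequences of RefSeq (GRCm38.p6), each from 250 bases before to 50 bases after a gene's start. The table held 8 promoters for 7 of the 10 genes, and H2-Ab1, Cd74 and Ciita had no entry. The lines below give 68 bases on each gene's own strand for the 6 genes with the letters TGATTGG, which contain the Y box letters ATTGG. They are shown because the 6 genes share the Y box letters. The X box letters are present in 5 of them, including H2-Oa and H2-Ob, and absent from H2-DMb2. H2-Oa, H2-Ob and H2-DMb2 were all not called below, and any link between the letters and the response was not tested. Capitals mark TGATTGG and, where present 15 to 35 bases before it, the X box letters GNAAC.
H2-Aa (chr17:34287861-34287928, minus strand): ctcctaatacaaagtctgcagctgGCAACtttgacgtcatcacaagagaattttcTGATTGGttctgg
H2-Eb1 (chr17:34305751-34305818, plus strand): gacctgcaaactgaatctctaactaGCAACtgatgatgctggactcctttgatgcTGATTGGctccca
H2-DMb1 (chr17:34153073-34153140, plus strand): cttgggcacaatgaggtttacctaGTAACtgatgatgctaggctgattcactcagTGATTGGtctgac
H2-DMb2 (chr17:34145102-34145169, plus strand): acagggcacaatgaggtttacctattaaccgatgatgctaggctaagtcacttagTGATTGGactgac
H2-Oa (chr17:34092279-34092346, plus strand): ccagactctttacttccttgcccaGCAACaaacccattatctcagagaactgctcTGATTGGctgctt
H2-Ob (chr17:34238791-34238858, plus strand): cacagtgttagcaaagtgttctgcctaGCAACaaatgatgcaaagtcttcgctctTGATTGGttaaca

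TGATTGG was in 6 of the 8 promoters, against 7.82% of the 32851 promoters in the table searched on both strands. GNAAC followed 15 to 35 bases later by TGATTGG was in 5 of the 8 and in 0.569% of all promoters. These letters were chosen after the promoters had been read, so the counts describe the sequences and are no test. A stricter X box core chosen earlier, AGNNACAG followed 15 to 35 bases later by ATTGG, was in 1 of the 8 (H2-Eb1, only on the opposite strand) and in 0.454% of all promoters. AGNNACAG alone was in 2 of the 8 promoters and 25.9% of all, and ATTGG alone in 7 of the 8 and 37.4% of all. TGATTGG began between 92 and 45 bases before the gene's start in the 6 sequences. Neither of the H2-DMa promoters held TGATTGG in this window.

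Clodrosome skin had lower levels of 7 of the 10 genes than encapsome skin at an adjusted p under 0.05, and 0 were higher. The level was between 2.03-fold and 2.41-fold lower for each of the 7: H2-Aa, H2-Ab1, H2-Eb1, Cd74, H2-DMa, H2-DMb1 and Ciita. H2-DMb2, H2-Oa and H2-Ob did not pass. Genes were tested with edgeR's quasi-likelihood test on the counts, with Benjamini-Hochberg adjustment over 17988 genes, of which 13% were called lower in clodrosome skin and 9.41% higher. All 3 clodrosome libraries lay below all 3 encapsome libraries for the same 7 genes, an arrangement found in 20.7% of the genes tested. A call together with a log2 fold change of -1 or lower was found in 3.85% of the genes tested, and each of the 7 met it in this fit. That cut was not planned, and H2-Aa (-1.02), Cd74 (-1.03) and H2-Eb1 (-1.04) lay close to it. H2-Aa missed it in some other fits, among them library totals only (-0.99) and without clodrosome C (-0.94). With single libraries left out, H2-Eb1 and Cd74 each reached -0.96. In RNA of whole skin, fewer cells that carry class II and less RNA per cell cannot be told apart.

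**Figure D1:**
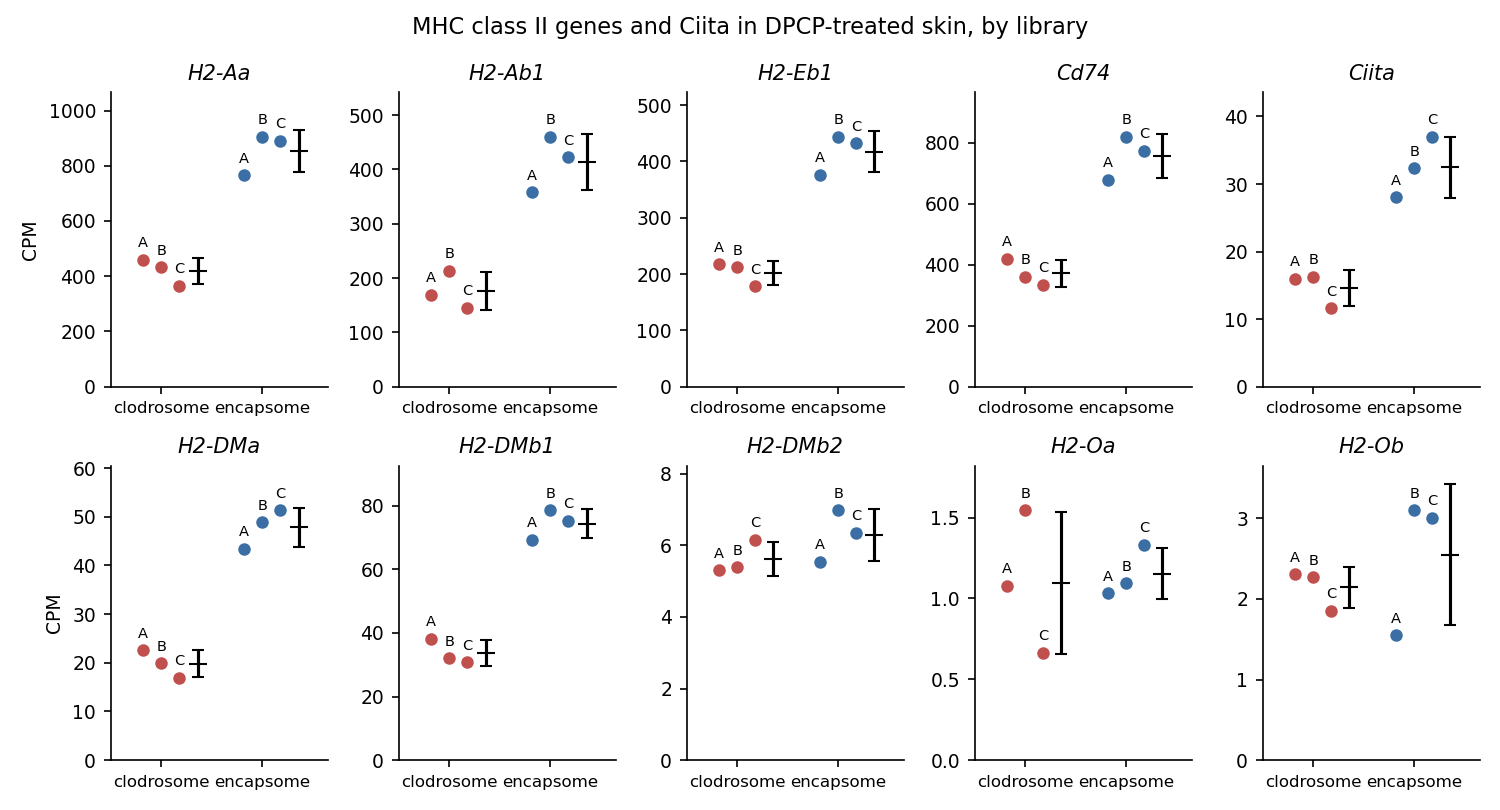
Level of each of the 10 genes in CPM (vertical axes start at 0), with 1 point per library labelled A, B or C, clodrosome at the left and encapsome at the right, and a bar for the mean and SD of 3 libraries. For H2-Aa the clodrosome libraries sit between 366 and 460 CPM and the encapsome libraries between 766 and 904 CPM, while the groups overlap for H2-DMb2, H2-Oa and H2-Ob.

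H2-Aa (ENSMUSG00000036594, GRCm38 chromosome 17, 34282744 to 34287823, minus strand) encodes the alpha chain of the molecule I-A. Its level was 460, 433 and 366 CPM (counts scaled to a common library size with TMM factors) in clodrosome libraries A, B and C, against 766, 904 and 890 CPM in encapsome libraries A, B and C. The lowest encapsome library stood well above the highest clodrosome library. The log2 fold change was -1.02 ± 0.109 (SE; edgeR adjusted p = 0.000304).

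H2-Ab1 (ENSMUSG00000073421, chromosome 17, 34257689 to 34269419, plus strand) encodes the beta chain of I-A. It stood at 169, 213 and 145 CPM in clodrosome A, B and C and at 358, 460 and 422 CPM in encapsome A, B and C. The groups did not overlap, and clodrosome B was the highest of its group. The log2 fold change was -1.23 ± 0.145 (SE; edgeR adjusted p = 0.000489).

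The beta chain of the other class II molecule, I-E, comes from H2-Eb1 (ENSMUSG00000060586, chromosome 17, 34305867 to 34316674, plus strand). Its values were 218, 212 and 178 CPM with clodrosome and 376, 444 and 432 CPM with encapsome, in library order. Clodrosome C and encapsome A were the lowest of their groups, as for H2-Aa and H2-Ab1. The log2 fold change was -1.04 ± 0.102 (SE; edgeR adjusted p = 0.000218). The table names the alpha chain gene of I-E as the pseudogene H2-Ea-ps, which had 4 counts in clodrosome A and 0 in the other 5 libraries, so it was not tested. Class II chains vary between mouse strains, and with the strain unknown, reads lost against the reference allele were not tested.

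Cd74 (ENSMUSG00000024610, chromosome 18, 60803848 to 60812652, plus strand) encodes the invariant chain. It was measured at 420, 361 and 335 CPM in clodrosome A, B and C, against 678, 819 and 774 CPM in encapsome A, B and C. The groups were separate, and the values nearest to each other were those of clodrosome A and encapsome A. The log2 fold change was -1.03 ± 0.110 (SE; edgeR adjusted p = 0.000312), a 2.04-fold lower level in clodrosome skin.

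Ciita (ENSMUSG00000022504, chromosome 16, 10480059 to 10528418, plus strand) encodes the co-activator of the class II genes. It is transcribed from several promoters used by different cell types, which gene counts do not separate. Clodrosome libraries had 15.99, 16.3 and 11.6 CPM, and encapsome libraries 28.1, 32.3 and 37.0 CPM. The groups did not overlap. The log2 fold change was -1.14 ± 0.148 (SE; edgeR adjusted p = 0.000789), and its 95% interval from -1.48 to -0.81 covers the fold changes of H2-Aa, H2-Ab1, H2-Eb1 and Cd74.

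H2-DM is made of an alpha chain from H2-DMa and a beta chain from H2-DMb1 or H2-DMb2. H2-DMa (ENSMUSG00000037649, chromosome 17, 34119541 to 34139101, plus strand) had 22.5, 19.9 and 17.0 CPM in clodrosome A, B and C and 43.5, 48.9 and 51.3 CPM in encapsome A, B and C. Every encapsome value was far above every clodrosome value, and the log2 fold change was -1.27 ± 0.114 (SE; edgeR adjusted p = 0.000156). Exons of Brd2 on the other strand cover 10.4% of its exonic bases, and reads there are not counted for either gene.

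H2-DMb1 (ENSMUSG00000079547, chromosome 17, 34153072 to 34160230, plus strand) stood at 38.2, 32.0 and 30.8 CPM with clodrosome and at 69.3, 78.5 and 75.3 CPM with encapsome. The groups were separate, and the log2 fold change was -1.14 ± 0.0972 (SE; edgeR adjusted p = 0.000125). Its neighbour and close copy H2-DMb2 (ENSMUSG00000037548, chromosome 17, 34143307 to 34151555, plus strand) stood at 5.30, 5.39 and 6.16 CPM with clodrosome and at 5.55, 6.97 and 6.35 CPM with encapsome. Here the groups overlapped, and the change of -0.17 ± 0.144 on the log2 scale did not pass (SE; edgeR adjusted p = 0.456).

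The 95% interval for H2-DMb2, -0.49 to 0.16, does not reach the fold change of H2-DMb1. Within each library, H2-DMb2 had 0.139, 0.169 and 0.200 counts per count of H2-DMb1 in clodrosome A, B and C, against 0.0803, 0.0891 and 0.0846 in encapsome A, B and C. All 3 clodrosome ratios were higher than all 3 encapsome ratios. This ratio was picked after the values had been seen and was not tested. Of the stretches of 100 bases in the transcripts of H2-DMb2, 10.3% also occur in H2-DMb1, and for H2-DMb1 the share in H2-DMb2 is 11.3%. Reads that fit both copies are left out, and how far misplaced reads of H2-DMb1 add to the count of H2-DMb2 was not tested.

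H2-DO, the modulator of H2-DM that is best known from B cells, is encoded by H2-Oa and H2-Ob. H2-Oa (ENSMUSG00000024334, chromosome 17, 34092340 to 34095234, plus strand) had 1.08, 1.54 and 0.663 CPM with clodrosome and 1.03, 1.09 and 1.33 CPM with encapsome. Clodrosome B was the highest and clodrosome C the lowest of the 6 libraries, so the encapsome values lie inside the clodrosome range. H2-Ob (ENSMUSG00000041538, chromosome 17, 34238903 to 34254414, plus strand) had 2.31, 2.27 and 1.85 CPM with clodrosome and 1.55, 3.10 and 3.0 CPM with encapsome. Encapsome A was the lowest of all 6.

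The log2 fold changes were -0.08 ± 0.327 for H2-Oa (SE; edgeR adjusted p = 0.890) and -0.24 ± 0.272 for H2-Ob (SE; edgeR adjusted p = 0.574). The counts behind them were 24 to 129 per library for H2-Oa and 48 to 276 for H2-Ob, far fewer than the 13165 to 55000 of H2-Aa. The 95% intervals are correspondingly wide, from -0.82 to 0.66 for H2-Oa and from -0.85 to 0.37 for H2-Ob. They do not reach the -1.02 of H2-Aa but leave room for a smaller change in either direction. The direction of H2-Oa turned without clodrosome C (0.15) and without encapsome C (0.03), and the value of H2-Ob was -0.50 without encapsome A and -0.07 without encapsome B. For H2-Oa, exons of the gene BC051537 on the other strand cover 22.8% of the exonic bases.

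**Figure D2:**
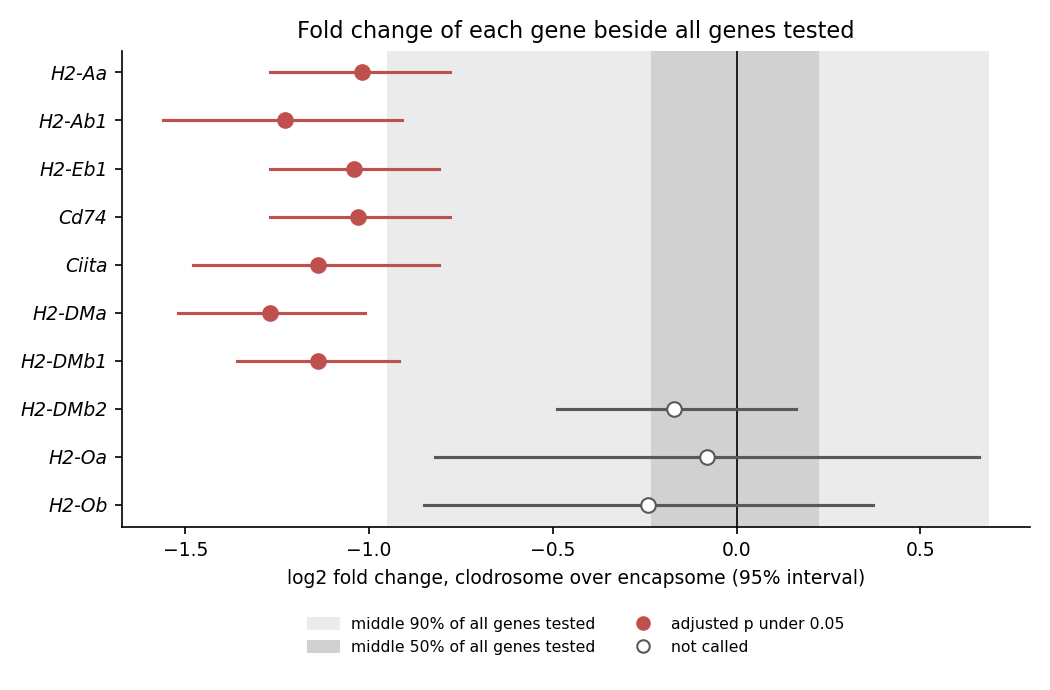
Log2 fold change of each gene, clodrosome over encapsome (points), with its 95% interval (lines), beside the middle 50% and middle 90% of all 17988 genes tested (dark and light bands). The 7 called genes lie between -1.27 and -1.02, left of the light band, whose left edge is at -0.95, and H2-DMb2, H2-Oa and H2-Ob lie between -0.24 and -0.08.

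The median log2 fold change of the 10 genes was -1.04, beside 0.01 over all genes tested. The 7 called genes kept their calls in each of 14 other settings, with edgeR, DESeq2 or limma adjusted p-values of at most 0.00534. Within groups, their coefficients of variation ran from 10.5% to 19.6% with clodrosome and from 6.25% to 13.7% with encapsome. Their mean levels in clodrosome skin were between 41.4% (H2-DMa) and 49.2% (H2-Aa) of the encapsome mean.

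Levels can be compared between genes only per length, here as CPM per kilobase of merged exons. Cd74 was the most abundant, at 221 ± 26.1 CPM per kilobase in clodrosome skin and 451 ± 42.9 in encapsome skin (SD, n = 3 each). H2-Aa followed at 110 ± 12.7 and 225 ± 20.03, and H2-Eb1 at 104 ± 10.9 and 215 ± 18.6, in the same order of groups and unit (SD, n = 3 each). Across the libraries of a group the levels per length of H2-Aa and H2-Eb1 overlap, although H2-Aa was the higher of the pair within each single library. H2-Ab1 came next at 68.5 ± 13.4 with clodrosome and 161 ± 19.95 with encapsome (SD, n = 3 each).

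The loading and regulatory genes were much scarcer per length. H2-DMb1 averaged 20.04 ± 2.35 CPM per kilobase with clodrosome and 44.2 ± 2.77 with encapsome, and H2-DMa 5.75 ± 0.808 with clodrosome and 13.9 ± 1.16 with encapsome (SD, n = 3 each). H2-DMb2 averaged 3.22 ± 0.271 with clodrosome and 3.60 ± 0.410 with encapsome, and Ciita 1.53 ± 0.276 and 3.40 ± 0.467 in that order (CPM per kilobase; SD, n = 3 each). In encapsome skin H2-DMb2 and Ciita do not differ beyond their spread, whereas in clodrosome skin every Ciita value lies below every H2-DMb2 value. H2-Oa (0.778 ± 0.313 with clodrosome, 0.819 ± 0.112 with encapsome) and H2-Ob (0.398 ± 0.0470 with clodrosome, 0.474 ± 0.161 with encapsome) were the lowest (CPM per kilobase; SD, n = 3 each). The length counts exons of all transcripts of a gene, so levels per length are too low for genes with long rare transcripts.

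**Figure D3:**
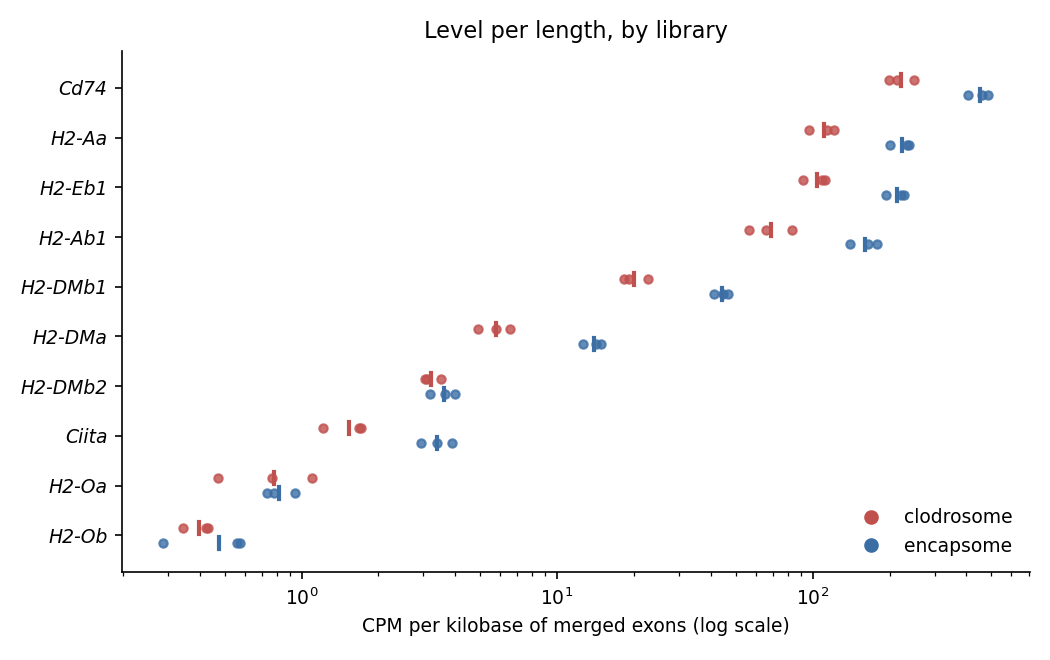
Level per length of the 10 genes (CPM per kilobase of merged exons, log axis), with 1 point per library, a tick for the mean of 3 libraries, clodrosome above encapsome in each row, and genes ordered by their encapsome mean. Cd74 is at the top (221 with clodrosome, 451 with encapsome) and H2-Ob at the bottom (0.398 with clodrosome, 0.474 with encapsome), and the group means stay apart down to H2-DMa and again for Ciita.

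The ratios of the falling genes to H2-Aa differed by at most 0.25 between the groups as log2 values, while H2-DMb2, H2-Oa and H2-Ob stood higher relative to H2-Aa in clodrosome skin. The ratio of H2-Eb1 to H2-Aa counts was 0.474, 0.490 and 0.487 in clodrosome A, B and C, against 0.491, 0.490 and 0.486 in encapsome A, B and C. Those values overlap, and the difference in mean log2 ratio was -0.02. Cd74 stood at 0.914, 0.833 and 0.914 counts per count of H2-Aa with clodrosome and 0.885, 0.906 and 0.870 with encapsome, again overlapping. For H2-DMa the ratio to H2-Aa was 0.0490, 0.0461 and 0.0463 with clodrosome and 0.0568, 0.0541 and 0.0577 with encapsome, all lower with clodrosome.

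Relative to H2-Aa, each clodrosome library had more H2-DMb2, H2-Oa and H2-Ob than each encapsome library, with differences in mean log2 ratio of 0.87, 0.87 and 0.83. In all, 13 ratios were tested with an exact two-sided permutation test over the 6 libraries, whose smallest possible p with 3 against 3 is 0.1. The ratios of H2-DMa, H2-DMb1, H2-DMb2, H2-Oa and H2-Ob to H2-Aa and of H2-Aa to Ptprc reached that p of 0.1 (0.217 adjusted over the 13 ratios), so none can pass a threshold of 0.05.

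The 7 falling genes had their lowest library in common within each group, and it was not the lowest one of most macrophage genes. Clodrosome C had the lowest level of its group for 7 of 7, and encapsome A the lowest of its group for 7 of 7. Of 12 macrophage markers, 12 were lowest in clodrosome B, and 7 were highest in encapsome A. The order was not particular to class II. The leukocyte gene Ptprc was also lowest in clodrosome C and in encapsome A within its groups. Of 6 monocyte markers, 4 were lowest in clodrosome C and 5 in encapsome A. The median log2 level relative to the encapsome mean was -0.96, -0.99 and -1.27 in clodrosome A, B and C for the 7 class II genes, and -1.40, -2.63 and -1.69 for the macrophage markers. The library with the deepest loss of macrophage markers was therefore not the one with the least class II RNA. This is a description of 6 libraries, with no test of the order.

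**Figure D4:**
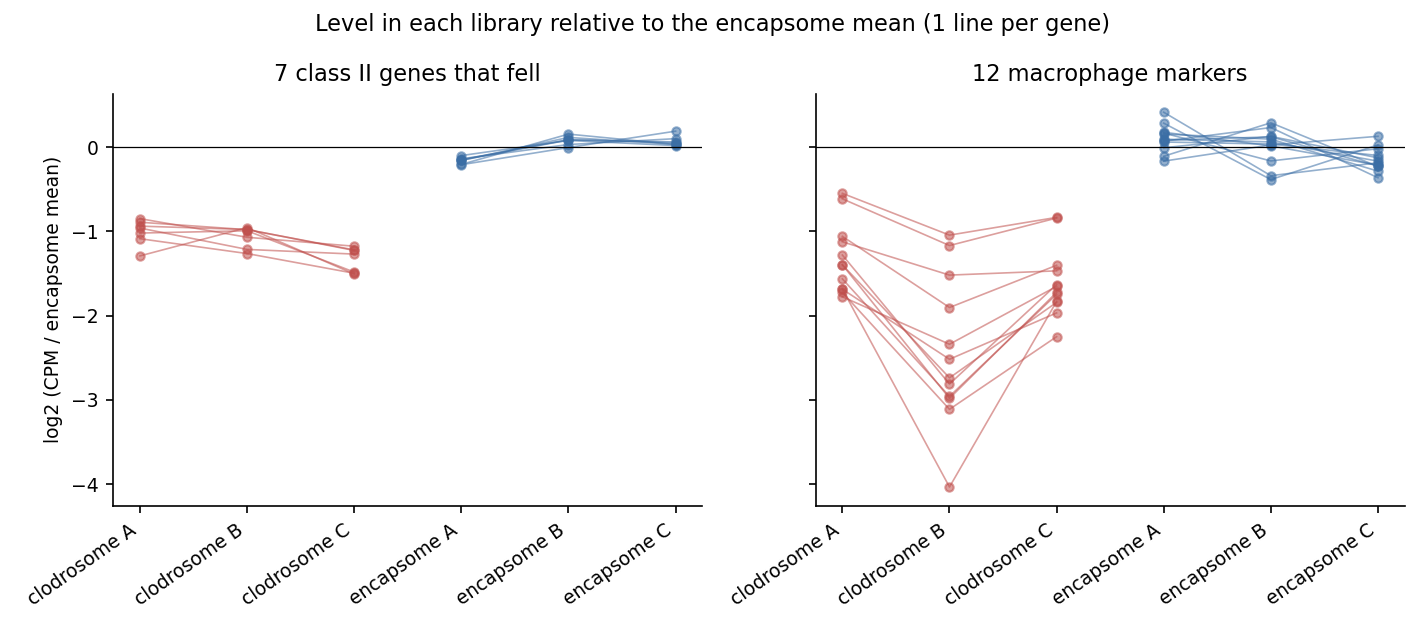
Level in each library as log2 of CPM over the encapsome mean of the same gene, with 1 line per gene that joins the libraries of a group, for the 7 class II genes that fell (left) and 12 macrophage markers (right). The class II genes stay close together, with medians of -0.96, -0.99 and -1.27 in clodrosome A, B and C, while the macrophage markers dip in clodrosome B to a median of -2.63.

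Clodronate liposomes are used to remove macrophages. All 12 macrophage markers were lower in clodrosome skin, with a median log2 fold change of -1.88, and their summed level was 574 to 1407 CPM with clodrosome and 3489 to 4090 CPM with encapsome. None of the 12 was at 0 in any library, and only the call of Timd4 was lost with a library left out (without clodrosome C, encapsome A or encapsome B; edgeR adjusted p up to 0.0953). The 4 with the smallest p-values were Fcgr1, a high-affinity antibody receptor, at -1.35, Cd68, a lysosomal glycoprotein, at -2.01, Mertk, a receptor for dying cells, at -1.88, and Folr2, a folate receptor, at -2.20 (edgeR adjusted p = 0.000145, 0.000340, 0.000489 and 0.000698). Measured per count of Adgre1, the gene of the macrophage antigen F4/80, H2-Aa had 3.96, 6.69 and 4.01 counts in clodrosome A, B and C and 2.82, 4.19 and 3.73 in encapsome A, B and C. The groups overlap, with a difference in mean log2 ratio of 0.42 (exact permutation p = 0.3). That difference was 0.17 without clodrosome B and 0.26 without encapsome A, and it ran up to 0.55 with other libraries left out. What share of the fall in class II came with these cells was not tested.

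Of 10 markers of conventional dendritic cells 5 were lower, and the list had a median log2 fold change of -0.76. Its summed level was 224 to 276 CPM with clodrosome and 520 to 585 CPM with encapsome. Sirpa alone gave 117 to 135 CPM of that sum with clodrosome and 263 to 290 CPM with encapsome. Those called included Sirpa, an inhibitory receptor also found on macrophages, at -1.18, Wdfy4, needed for cross-presentation, at -1.07, the integrin gene Itgax at -0.95 and the lectin gene Cd209a at -1.63 (edgeR adjusted p = 8.51e-05, 8.97e-05, 0.000153 and 0.000309). Clec10a, a lectin of dendritic cells and macrophages named after its value was seen, was the remaining call, at -1.45. The genes more restricted to these cells did not pass: Zbtb46 had a log2 fold change of 0.09, Flt3 of 0.36, Clec9a of 0.24 and Xcr1 of -0.56, with edgeR adjusted p-values from 0.136 to 0.692. These 4 were named after their values were seen. All clodrosome libraries lay above all encapsome libraries for Flt3 and below them for Xcr1. Those arrangements were found in 3515 and 3723 of the 17988 genes tested. With the share of ribosomal RNA counts as a term of the fit, 6 of the 10 markers were called lower and 1 higher. H2-Aa per count of Itgax was 21.1, 22.5 and 17.1 with clodrosome and 18.2, 21.9 and 23.6 with encapsome, overlapping values with a difference in mean log2 ratio of -0.07 (exact permutation p = 0.6). Itgax is not one of the more restricted genes, so this ratio does not give class II per dendritic cell.

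Mature migratory dendritic cells carry much class II on their surface. Of their 7 tested markers 0 were lower and 2 higher, with a median log2 fold change of 0.22 and a summed level of 241 to 291 CPM with clodrosome and 223 to 241 CPM with encapsome. Ccr7, the lymph node homing receptor, stood at 16.3, 18.3 and 23.1 CPM with clodrosome and 8.29, 8.76 and 10.5 CPM with encapsome, which gave 1.07 ± 0.152 as its log2 fold change (SE; edgeR adjusted p = 0.00135). Ccl22, a chemokine of these cells, rose by 0.45, a call lost without clodrosome C, encapsome A, encapsome B or encapsome C (edgeR adjusted p from 0.0145 to 0.140 with each library left out). Ccl17, another chemokine on the list, had a log2 fold change of -0.89, with overlapping groups (edgeR adjusted p = 0.207). Without clodrosome C, 1 marker of the list was called lower and 1 higher. Most of the summed level came from Fscn1, at 143 to 180 CPM with clodrosome and 142 to 152 CPM with encapsome. Its log2 fold change was 0.09 (edgeR adjusted p = 0.579). The share of mature migratory dendritic cells in the class II RNA was not tested.

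Langerhans cells are the dendritic cells of the epidermis. Their defining gene Cd207, which encodes langerin, had 5.34, 7.26 and 5.69 CPM with clodrosome and 9.13, 7.98 and 7.42 CPM with encapsome. The clodrosome libraries were all lower, but the log2 fold change of -0.43 did not pass (edgeR adjusted p = 0.0774). Of the 5 markers on the list 1 was lower (Cd1d1 at -0.38) and 2 were higher (among them Mfge8 at 0.62), with a summed level of 678 to 746 CPM with clodrosome and 516 to 604 CPM with encapsome. The call of Cd1d1 was lost without encapsome B or C, and that of Mfge8 held whichever library was left out. Epcam and Mfge8, which contribute much of that sum, are also expressed by epithelial cells.

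Most B cell markers were scarce. Of 10 genes only 4 passed the filter on low counts, and the defining genes Ms4a1, Cd79a and Pax5 had between 0 and 32 counts per library and were not tested. Pax5 was at 0 in clodrosome C and in all encapsome libraries. The summed level of the list was 29.1 to 38.8 CPM with clodrosome and 46.2 to 60.9 CPM with encapsome and came mostly from Ighm, the antibody mu chain gene. Ighm was called at -0.71 and the receptor chain gene Cd79b at -1.43 (edgeR adjusted p = 0.00588 and 0.0144), and the call of Cd79b was lost without encapsome A or B. Blk, a kinase gene of B cells, had a log2 fold change of 0.89 with all clodrosome libraries above all encapsome libraries (edgeR adjusted p = 0.120). That arrangement was found in 3515 of the 17988 genes tested. Cd79a, the partner of Cd79b, had 0.192, 0.493 and 0.359 CPM with clodrosome and 0.0968, 0.156 and 0.190 CPM with encapsome. The called markers were thus lower, while Blk, not called, and Cd79a, not tested, lay on the other side.

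Among monocyte markers 3 of 6 were lower, with a summed level of 569 to 689 CPM with clodrosome and 1040 to 1186 CPM with encapsome. They were the antibody receptor gene Fcgr4 at -1.44, the clotting factor gene F13a1, shared with resident macrophages, at -1.67 and the chemokine receptor gene Ccr2 at -0.78 (edgeR adjusted p = 0.000469, 0.00309 and 0.00733). Others on the list had values on the opposite side: Ly6c2, which marks inflammatory monocytes, had a log2 fold change of 0.37 and Chil3, a chitinase-like protein gene, of 0.53 (edgeR adjusted p = 0.351 and 0.146). With no filter on low counts, and with rRNA share as a term, 2 monocyte markers were called higher. Ptprc, the gene of the leukocyte antigen CD45, was lower by a smaller amount, at -0.43 (edgeR adjusted p = 0.0116), a call lost without clodrosome C or encapsome B (edgeR adjusted p from 0.0125 to 0.0541 with each library left out). H2-Aa per count of Ptprc was 2.196, 2.05 and 2.03 in clodrosome A, B and C, against 3.12, 3.07 and 3.31 in encapsome A, B and C, with no overlap (exact permutation p = 0.1).

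The regulators of class II were examined next. Of 12 genes upstream of Ciita 5 were lower and 0 higher, with a median log2 fold change of -0.30. Spi1 and Irf8, transcription factors of myeloid and dendritic cells, changed by -0.94 ± 0.112 and -0.90 ± 0.108 (SE; edgeR adjusted p = 0.000526 and 0.000573). Ifngr2 and Ifngr1, the chains of the interferon gamma receptor, changed by -0.39 and -0.26 (edgeR adjusted p = 0.00307 and 0.0342). The call of Ifngr1 was lost with any of 5 libraries left out (edgeR adjusted p from 0.0226 to 0.134). Ifng itself was scarce, at 0.259, 0.296 and 0.414 CPM with clodrosome and 0.581, 0.344 and 0.608 CPM with encapsome, values that overlap (log2 fold change -0.69; edgeR adjusted p = 0.251). Irf1, an interferon-induced activator of Ciita, had a log2 fold change of -0.05 (edgeR adjusted p = 0.799).

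The factors that bind the X and Y boxes moved little. Of the RFX subunit genes Rfx5, Rfxap and Rfxank, the NF-Y subunit genes Nfya, Nfyb and Nfyc, and Creb1, only Nfya was called, at -0.24 (edgeR adjusted p = 0.0313). That call was lost with any of 5 libraries left out (edgeR adjusted p from 0.0297 to 0.102). The remaining 6 had log2 fold changes between -0.10 and 0.18, and the median of the list was -0.01.

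Of 9 genes of antigen processing 8 were lower and 0 higher, and their median log2 fold change was -0.79. Ctss, the protease cathepsin S that completes the removal of the invariant chain, stood at 431, 371 and 354 CPM in clodrosome A, B and C, against 1876, 1441 and 1939 CPM in encapsome A, B and C. The groups lay far apart, and its log2 change of -2.18 ± 0.134 was larger than that of any of the 10 class II genes (SE; edgeR adjusted p = 4.42e-05). Ctsh, the protease cathepsin H, changed by -0.88, Ifi30, a lysosomal thiol reductase that opens disulphide bonds of antigens, by -0.79 and Lgmn, the endosomal protease legumain, by -1.60 (edgeR adjusted p = 0.000135, 0.000199 and 0.000324). Ctsl, cathepsin L, the protease without a call, had a log2 fold change of 0.04. Macrophages also express these proteases, and the part of macrophage loss was not tested.

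Of 4 genes that set how long class II stays on the surface, 3 were lower. March1, a ubiquitin ligase that sends class II to degradation, had 22.7, 18.8 and 16.2 CPM with clodrosome and 50.9, 55.7 and 53.9 CPM with encapsome, giving -1.47 ± 0.120 as the log2 fold change (SE; edgeR adjusted p = 0.000106). Its relative March8 changed by -0.53 (edgeR adjusted p = 0.000970). Il10, a cytokine that induces March1, changed by -1.09 (edgeR adjusted p = 0.0224), a call lost without clodrosome C, encapsome A or encapsome B. Cd83, which opposes March1, had a log2 fold change of 0.14 (edgeR adjusted p = 0.592).

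Co-stimulatory genes, which supply the further signals that T cells need, were called in 2 of 8 cases, both lower: Cd40 at -1.06 and Cd86 at -0.60 (edgeR adjusted p = 0.000359 and 0.00117), while the list had a median of -0.26. Cd80, the partner of Cd86 named after its value was seen, had a log2 fold change of -0.11 (edgeR adjusted p = 0.546). On the T cell side 1 of 6 tested genes was called, Cd28, the receptor of Cd80 and Cd86, at -1.02 (edgeR adjusted p = 0.0237), a call lost with any of 4 libraries left out. Over all genes tested, 13% were called lower and 9.41% higher, so such small counts say little about either list as a whole. Cd4, whose product binds class II, had a log2 fold change of -0.67 (edgeR adjusted p = 0.0870), and macrophages and dendritic cells can express it too. Genes of the T cell receptor complex were not called and differed in direction. Cd3g had a log2 fold change of -0.22 (edgeR adjusted p = 0.489). Trac and Cd3e had log2 fold changes of 0.52 and 0.43 (edgeR adjusted p = 0.140 and 0.275). For Trac, all clodrosome libraries lay above all encapsome libraries. That arrangement was found in 3515 of the 17988 genes tested. With rRNA share as a term 1 gene of the list was called higher.

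**Figure D5:**
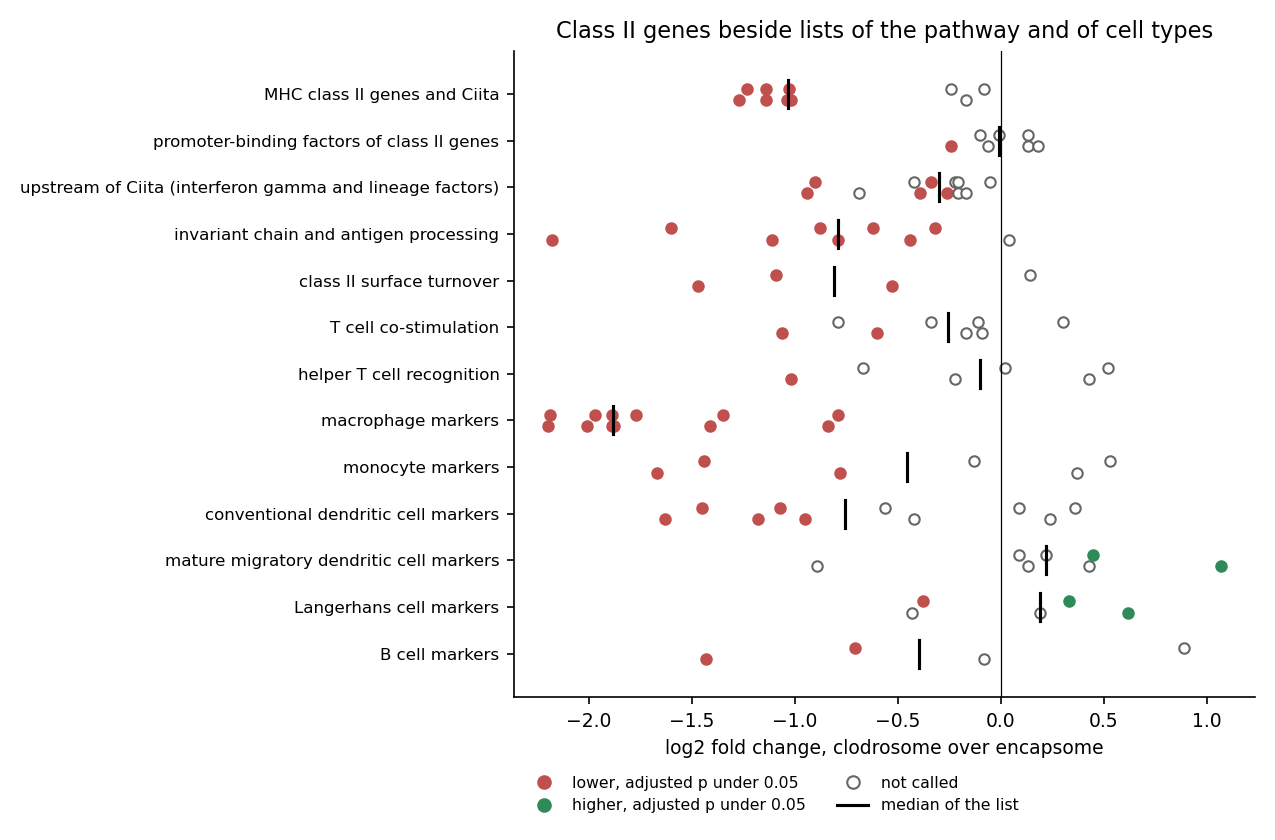
Log2 fold change, clodrosome over encapsome, of each tested gene (points) in the class II set and in lists of its pathway and of cell types, filled where the edgeR adjusted p was under 0.05, with the median of each list as a bar. The macrophage list lies furthest left with a median of -1.88, the class II set has a median of -1.04, and the lists of migratory dendritic and Langerhans cells have medians of 0.22 and 0.19.

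The genes closest in pattern to H2-Aa, H2-Ab1, H2-Eb1 and Cd74 were found by the root mean square difference between log2 CPM profiles centred over the 6 libraries, among 15269 other genes with at least 1 CPM. The 8 closest were Amdhd2, an enzyme of amino sugar breakdown, Ntpcr, a nucleoside triphosphatase, Medag, known from fat cell development, Lrrc25, a leucine-rich repeat protein of myeloid cells, Lgals1, which encodes galectin 1, Otulinl, Msl3l2 and Cnr2, the cannabinoid receptor of immune cells, with differences from 0.0706 to 0.0905. Their log2 fold changes lay between -1.16 and -0.96, and all 8 were called with each library left out. Lgals1, the most abundant, stood at 445, 460 and 413 CPM with clodrosome and 799, 916 and 873 CPM with encapsome. Against the same profile H2-DMb1 had a difference of 0.0915, Ciita of 0.106 and H2-DMa of 0.116, so only 8, 21 and 28 of the other genes were closer. H2-DMb2, H2-Oa and H2-Ob had differences of 0.492, 0.546 and 0.508, with 4083, 6196 and 4655 genes closer.

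The libraries held 26649396 to 116965654 counts in genes, the largest being clodrosome A. The share of counts in ribosomal RNA genes divided them across the groups: it was 0.334% to 0.481% in clodrosome libraries A and C and encapsome library A, and 0.788% to 0.845% in the remaining 3. The labels name no batch. Within the side of lower share the 7 called genes had log2 differences from -1.19 to -0.85, and within the side of higher share from -1.33 to -1.05. Of 6 genes that mark skin itself, all were present in every library. The keratin genes of basal keratinocytes were higher in clodrosome libraries (Krt14 at 14749 to 16519 CPM, against 11193 to 13880 CPM in encapsome libraries). The keratin genes of differentiating keratinocytes were lower (Krt10 at 22.1 to 45.7 CPM with clodrosome and 79.3 to 83.9 CPM with encapsome, Krt1 at 112 to 218 CPM with clodrosome and 270.2 to 412 CPM with encapsome), and the collagen gene Col1a1 of fibroblasts was lower (173 to 266 CPM with clodrosome, 670 to 962 CPM with encapsome). These markers were picked after the class II values were known, and what part such a shift in tissue makeup has in the class II levels was not tested.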

How the data were processed

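Polyadenylated RNA of dorsal skin was sequenced as stranded 150-base paired ends, per the labels' protocols. The submitters' processing notes name Trimmomatic 0.36, HISAT2 2.2.1, StringTie 2.2.1, featureCounts 1.6.2, DESeq2 1.34.0 and mm10. Raw counts per gene were deposited; they come from featureCounts 1.6.2 with the annotation of Ensembl release 102 (GRCm38), per the file headers. The command sets no option for pairs, strand, multiple mapping or overlap. By default, read ends are then counted singly without strand, and ambiguous reads are left out. Between 63.6% and 69.7% of counts from 1 to 20 were even.

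Columns were matched to groups by name, with 0 further sample columns. Symbols were found for 99.4% of identifiers. Pairs of libraries within a group differed by a chi-square of 9.93 to 53.0 per gene, far above sampling noise. Counts were tested with edgeR 4.0.16 in R 4.3.3 (TMM, filterByExpr with minimum count 10 and total 15, threshold 0.05). Standard errors are the fold change over the square root of F, and 95% intervals use the t distribution of the fit. Ratios had 0.5 counts added. The procedure was tested on simulated data. Alternatives used DESeq2 1.42.0, limma 3.58.1 and each library left out. Libraries are lettered in column order. In each list the called genes with the 4 smallest p-values are named, and other list genes in the text were named with their values known. Intervals cover counting error and the spread between these libraries. The genes, lists and rule were chosen with earlier results of these data known. Values of some list genes are not reported here.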

Additional observations from a re-analysis of the deposited data

How the results depend on the processing

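The 7 calls held under DESeq2, limma voom, RLE factors, library totals, no filter on low counts, halved counts, a robust spread estimate, rRNA share as a term (added after seeing the data) and each library left out. With single libraries left out, genes called higher over the whole table numbered 821 to 1964 (1692 with all), and companion genes called higher 2 to 5 (4 with all). Companion genes called higher numbered 7 with no filter on low counts and 7 with rRNA share as a term. H2-Oa changed direction with rRNA share as a term (0.08), and its value ran from -0.35 to 0.15 with single libraries left out. Over the same fits the log2 ratio difference of Cd74 to H2-Aa ran from -0.02 to 0.04 and that of H2-Aa to Itgax from -0.18 to 0.04, and the cause was not tested. Of 48 companion genes called, 36 were called whichever library was left out; outside these fits the calls of Nfya, Ifngr1, Cd163 and Ccl22 were each lost under at least 1 setting. The median log2 fold change of all genes was 0.009 and lay between -0.002 and 0.078 in the other settings. No paired analysis was possible because the count columns cannot be tied to the replicates that the titles number. Depth limits H2-Oa and H2-Ob, with 24 to 276 counts per library.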
